A study of Rattus norvegicus with 2 samples.

Results

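The 7 CC chemokine ligand genes were followed across the cells of the neonatal rat heart, in saline and after LPS. The members are *Ccl2* (ENSRNOG00000007159), *Ccl7* (ENSRNOG00000000239), *Ccl3* (ENSRNOG00000011205), *Ccl4* (ENSRNOG00000011406), *Ccl5* (ENSRNOG00000010906), *Ccl20* (ENSRNOG00000015992) and *Ccl11* (ENSRNOG00000007335), which makes 7 of the 25399 genes counted. They were listed by symbol, and all 7 were found. The cells came from hearts of Sprague-Dawley rats of both sexes, pooled, at 1 to 3 days of age, and were enriched on a Percoll gradient for intrinsic cardiac adrenergic (ICA) cells. One portion received saline (control) and the other LPS, a cell wall component of Gram-negative bacteria, at 1 µg/mL, each for 2 h. Each condition gave 1 library of 10X Genomics 3′ single-cell RNA, so no test between conditions is possible and no p-value is given. Every interval is a 95% interval of the counting error alone. Differences between cultures or library runs cannot be told apart from those between saline and LPS.

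CC chemokines are small secreted proteins that direct the movement of leukocytes by binding G protein-coupled receptors of the CCR family. In the heart, as elsewhere, resident macrophages, fibroblasts and endothelial cells can release them once Toll-like receptors sense a bacterial product, and different ligands call in different cells. *Ccl2* and *Ccl7* attract monocytes through CCR2, *Ccl3*, *Ccl4* and *Ccl5* act on monocytes and T cells, *Ccl20* attracts cells that carry CCR6, and *Ccl11* (eotaxin) attracts eosinophils through CCR3.

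The control library held 11531 cells with a median of 12479 unique molecular identifiers (UMIs, each 1 captured RNA molecule) and the LPS library 12689 cells with a median of 9432. The authors' clusters, numbered 0 to 10, covered 11529 and 12681 of them. The authors named clusters 0, 1 and 7 fibroblasts, cluster 3 ICA cells and cardiomyocytes, clusters 4 and 5 endothelial cells and cluster 6 macrophages, and left clusters 2, 8, 9 and 10 without a name. Among the latter, the pericyte markers summed to 681 counts per 1000000 UMIs (CPM) in cluster 2 of the LPS library and the mesothelial markers to 681 CPM in cluster 8. The labels call all cells ICA cells, yet *Th*, the first enzyme of catecholamine synthesis, had 5 UMIs among the clustered control cells and 4 among the LPS cells, and 0 in cluster 3 of either library. Other genes of that pathway lay mostly in cluster 3, which held 180 of 268 control and 136 of 175 LPS UMIs of *Dbh* and 351 of 514 and 312 of 397 of *Ddc*. The 2 libraries shared 194 cell barcodes, of which 76 fell in the same cluster in both. A level below is the CPM of a gene, from the summed UMIs of all cells of a cluster in 1 library. The clusters were made from the same counts, these genes among them. Levels of different genes are not set against each other, since the capture of each 3′ end differs.

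Of the 7 ligands, 5 (*Ccl2*, *Ccl3*, *Ccl4*, *Ccl7* and *Ccl20*) were more abundant with LPS in the large fibroblast cluster 0 by a ratio of at least 4, where 1.15% of the 12247 genes with at least 50 UMIs reached that ratio. The remaining pair in that cluster, *Ccl5* and *Ccl11*, had log2 ratios of 0.56 and -0.40. The median log2 ratio was 4.08 over the 7 ligands and -0.13 over all genes of the cluster. The ligands were listed with earlier results of these data known, so the values over all genes are a background and not a test. In macrophages 4 of the 6 ligands with enough UMIs passed (*Ccl3*, *Ccl4*, *Ccl5* and *Ccl20*, against 1.8% of 6385 genes), with medians of 4.31 and -0.30. In cluster 1 the ligands past the fold were 5 of 7 (1.07% of all genes), in cluster 2 also 5 of 7 (0.985%) and in cluster 3 all 5 measured (0.602%). Endothelial cluster 4 had 6 of 6 past the fold (0.79%) and endothelial cluster 5 had 5 of 5 (1.38%). Clusters 7 and 8 had 5 of 6 each (1.52% and 0.633%), and clusters 9 and 10, where *Ccl2* and *Ccl7* alone had enough UMIs, 2 of 2 each (1.14% and 1.21%). In clusters 0 to 5, 7 and 8 the counts include *Ccl3* and *Ccl4*. In cluster 0 with LPS these lay at 0.320% and 0.357% of their macrophage levels, beside 0.397% for the sum of 12 macrophage markers. In cluster 3 with LPS they lay at 0.484% and 0.534%, beside 0.423% for the markers. *Ccl2* and *Ccl7* in that cluster lay at 27.9% and 29.5% of their cluster 0 levels, beside 32.2% for the sum of 8 fibroblast markers. The part of macrophage or fibroblast RNA in these counts was not tested. None of the 7 ligands was lower by a ratio of 4 in a cluster where it had at least 50 UMIs. A further CC ligand, *Ccl24*, was lower by more than that in cluster 0 and in macrophages (log2 ratios of -2.83 and -2.31). In cluster 0 it had 1.39 CPM in control and 0.190 CPM with LPS (126 and 14 UMIs), beside 334 and 67.2 CPM in macrophages. The part of macrophage RNA in these cluster 0 levels was not tested. Genes lower by a ratio of at least 4 made up 1.37% of all genes in cluster 0 and 0.621%, 0.314%, 0.201%, 0.411% and 0.498% in clusters 1 to 5. Their share was 1.68% in macrophages, 0.312%, 0.101% and 0.239% in clusters 7 to 9 and 0% in cluster 10. Setting the median of all genes to 0 adds 0.30 to every log2 ratio in macrophages, 0.13 in cluster 0 and 0.12 in cluster 2, which brings *Ccl7* in macrophages past the fold (2.18 on the log2 scale) and leaves *Ccl2* there below it (1.85).

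**Figure D1:**
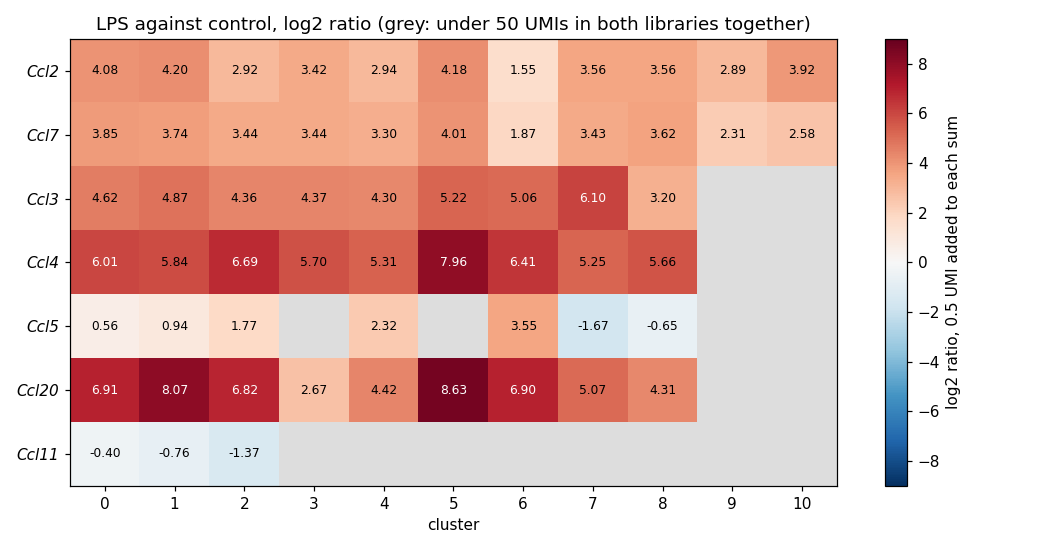
Log2 ratio of LPS to control, with 0.5 UMI added to each sum, for the 7 ligands (rows) in the 11 clusters (columns), blue for lower and red for higher with LPS and grey for fewer than 50 UMIs in both libraries together. *Ccl2* and *Ccl7* have their smallest ratios in macrophages, cluster 6 (1.55 and 1.87), *Ccl20* its largest in endothelial cluster 5 (8.63), and *Ccl5* is negative in clusters 7 and 8 (-1.67 and -0.65) only.

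*Ccl2*, the chief monocyte attractant, was found in every cluster of both libraries and was higher with LPS in all 11. In cluster 0 its level was 448 CPM (444 to 453) in control and 7567 CPM with LPS, a ratio of 16.9 (16.7 to 17). This was a shift of nearly the whole population: the median fibroblast of cluster 0 held 3 *Ccl2* UMIs in control (quartiles 2 and 7) and 72 with LPS (54 and 97), and 17.5% against 99.9% of cells held 10 or more. After each cell had been thinned to 3000 UMIs, 57.7% (56.5 to 58.9) of control and 100% (99.9 to 100) of LPS cells of the cluster kept a *Ccl2* UMI, against 91.8% and 100% without thinning, at median depths of 12968 and 9821.5 UMIs. Cluster 3, which had the lowest *Ccl2* level in CPM in both libraries, kept 41.3% (37.9 to 44.7) and 98.6% (97.6 to 99.2), at median depths of 7526 and 5269.

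In control, macrophages stood apart with 5044 CPM of *Ccl2*, 3.65 times (3.56 to 3.73) the level of cluster 2, the next highest at 1384 CPM. The clusters that followed were endothelial cluster 4 (894 CPM), cluster 9 (865 CPM) and fibroblast cluster 7 (732 CPM). The lowest levels were in endothelial cluster 5 (354 CPM) and cluster 3 (196 CPM). Neighbours in this order whose ratio could not be told from 1 were clusters 4 and 9, clusters 8 and 0, clusters 1 and 10, and clusters 10 and 5.

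With LPS the order stayed led by macrophages at 14739 CPM and cluster 2 at 10490.3 CPM, but the macrophage level was now 1.41 times (1.39 to 1.42) that of cluster 2. Fibroblast clusters 7, 0 and 1 followed with 8648, 7567 and 7541 CPM, and the ratio of clusters 0 and 1 was 1.00 (0.998 to 1.01). Endothelial clusters 4 and 5 had 6854 and 6401 CPM, and cluster 3 had 2109 CPM. The 4 clusters with the most *Ccl2* in saline had the smallest ratios, 2.92 (2.87 to 2.98) in macrophages, 7.58 (7.44 to 7.72) in cluster 2, 7.66 (7.50 to 7.83) in endothelial cluster 4 and 7.43 (6.66 to 8.32) in cluster 9. The saline level is the denominator of the ratio, so the 2 orders are not independent. The largest were 18.4 (18.0 to 18.8) in fibroblast cluster 1, whose cycling markers summed to 475 and 459.9 CPM, and 18.1 (17.2 to 19.1) in endothelial cluster 5. Without the 5 leading cells of each library the ratio of cluster 9 was 10.2 (8.84 to 11.9). Its control level was then 510 CPM, below the 564 CPM of cluster 7. The same step gave ratios of 18.7 in cluster 1, 22.1 in cluster 5 and 43.8 in cluster 10, the last on 8 control UMIs. Both orders thus rest in part on a few cells. Macrophages held 16.7% of the control library's *Ccl2* UMIs and 3.8% of those of the LPS library, and cluster 0 held 43.2% and 57.9%.

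**Figure D2:**
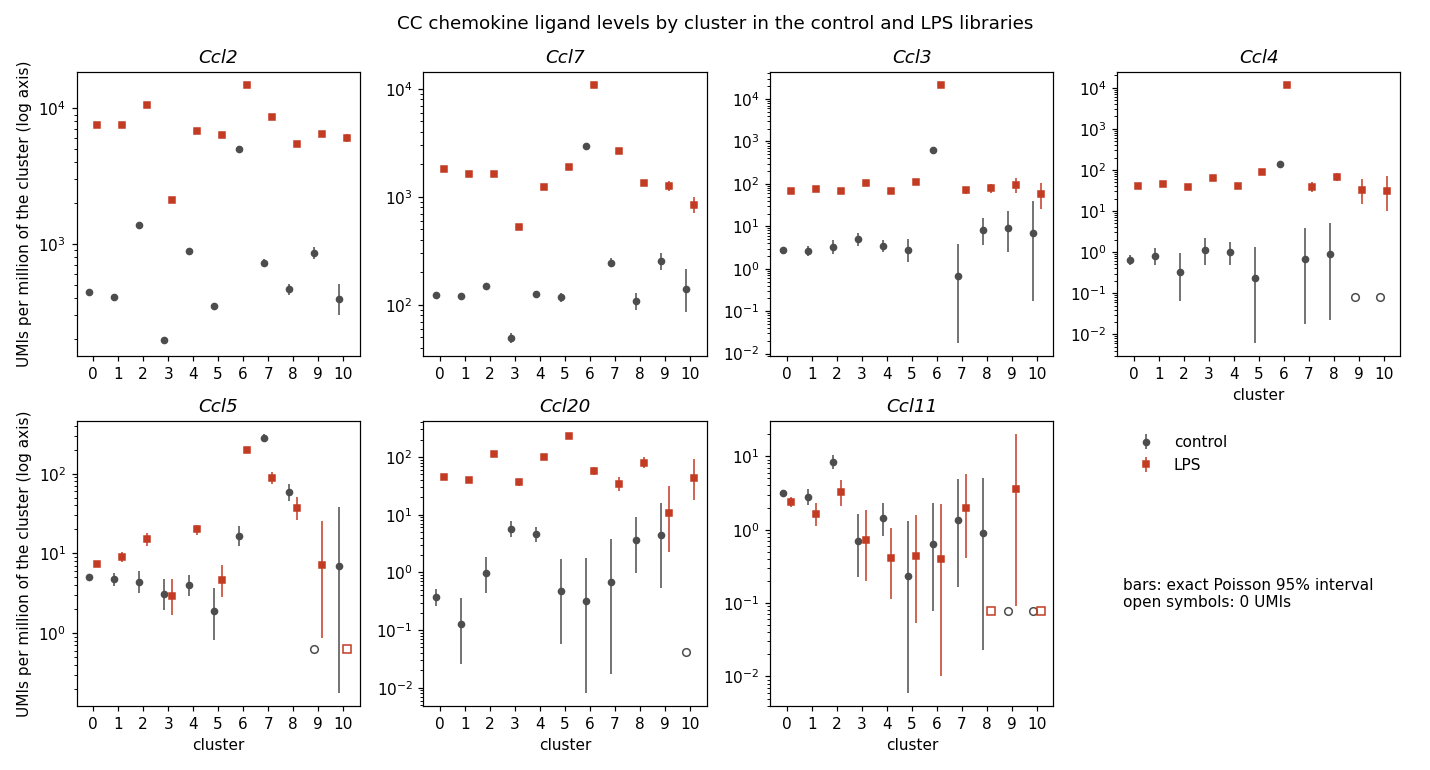
Level of each ligand in CPM of the cluster (log axis, a separate scale for each gene) in each of the 11 clusters, control as grey circles and LPS as red squares, with exact Poisson 95% intervals and open symbols for 0 UMIs. With LPS, *Ccl2* lies between 2109 and 14739 in all clusters, *Ccl3* and *Ccl4* reach 21441.5 and 11689 in cluster 6 and lie near or below 109 elsewhere, the control level of *Ccl5* is above its LPS level in clusters 7 and 8, and *Ccl11* lies below 10 throughout.

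*Ccl7*, a monocyte attractant that lies next to *Ccl2* in the RefSeq gene order, had the same leading cluster. In macrophages its level was 2945 CPM in control and 10780.5 CPM with LPS, a ratio of 3.66 (3.57 to 3.75). In fibroblast cluster 0 the levels were 124 and 1799 CPM, a ratio of 14.5 (14.2 to 14.7), and the median cell held 1 and 16 UMIs. The ratios of the other clusters ran from 4.97 (4.01 to 6.19) in cluster 9 to 16.1 (14.7 to 17.7) in endothelial cluster 5.

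Macrophages were further ahead of the other clusters for *Ccl7* than for *Ccl2*. In the LPS library their *Ccl7* level was 4.05 times (3.92 to 4.19) that of cluster 7, the next highest at 2662 CPM, and fibroblast cluster 0 lay at 16.7% (16.5 to 16.9) of it, whereas for *Ccl2* the same cluster lay at 51.3% (50.8 to 51.9). For each *Ccl2* UMI, macrophages held 0.584 (0.569 to 0.599) *Ccl7* UMIs in control and 0.731 (0.720 to 0.743) with LPS. In cluster 0 this ratio was 0.277 in control and 0.238 (0.236 to 0.239) with LPS, and in cluster 1 it was 0.297 and 0.216. It moved the other way in cluster 2, from 0.109 to 0.156, and in endothelial cluster 4, from 0.14 to 0.181. The ratio of the 2 ligands thus moved in opposite directions in fibroblast clusters 0 and 1 and in clusters 2, 4 and 6, by more than the counting intervals.

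The levels of *Ccl2* and *Ccl7* in cluster 3 sit beside signal of fibroblast genes in the same cells. In the LPS library cluster 3 had 27.9% (27.4 to 28.4) of the *Ccl2* level and 29.5% (28.4 to 30.6) of the *Ccl7* level of cluster 0, and the 8 fibroblast markers summed to 32.2% (31.7 to 32.6) of their level there, from 18.3% to 53.2% for single markers. In control these values were 43.8% for *Ccl2*, 39.3% for *Ccl7* and 32.7% for the markers. The part of free or neighbouring fibroblast RNA in the cluster 3 values was not tested. In the 2 endothelial clusters the fibroblast markers summed to 22.1% and 20.6% of the cluster 0 level with LPS, and *Ccl2* lay at 90.6% (89.9 to 91.3) and 84.6% (83.6 to 85.6). In macrophages the markers summed to 27.8% and *Ccl2* lay at 195%.

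*Ccl3* and *Ccl4*, the macrophage inflammatory proteins 1α and 1β, were ligands of macrophages in both libraries. *Ccl3* was at 641 CPM in control macrophages and 21441.5 CPM in LPS macrophages, a ratio of 33.4 (32.0 to 35.0). *Ccl4* was at 137 CPM and 11689 CPM, a ratio of 85.1 (77.3 to 93.8). More than 1 in every 50 UMIs of the LPS macrophages was thus *Ccl3*.

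Nearly every LPS macrophage held both genes. The median macrophage held 4 *Ccl3* UMIs in control (quartiles 1 and 8) and 171 with LPS (95 and 251). For *Ccl4* the median was 0 in control (quartiles 0 and 1) and 81 with LPS (48 and 129). After thinning, 59.1% (53.1 to 64.9) of control and 99.7% (98.1 to 100) of LPS macrophages kept a *Ccl3* UMI, and 25.3% (20.3 to 30.8) and 98.6% (96.5 to 99.6) a *Ccl4* UMI, against 81.1%, 99.7%, 44.1% and 98.6% without thinning, at median depths of 8846 and 6900 UMIs. The control values came from uneven cells: 58 of 281 control macrophages held 10 or more *Ccl3* UMIs, and the tenth of the cells with the most held 47.6% of the *Ccl3* UMIs and 69.2% of those of *Ccl4*. Among control macrophages with a *Ccl3* UMI after thinning, 34.3% also held *Ccl4*, and among those without, 12.2%. Macrophages held 0.214 (0.193 to 0.238) *Ccl4* UMIs for each *Ccl3* UMI in control and 0.545 (0.537 to 0.553) with LPS.

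Outside the macrophages *Ccl3* and *Ccl4* were low. Across the other 10 clusters *Ccl3* lay between 56.5 and 109 CPM with LPS, and no pair of neighbours in their order differed beyond the counting intervals, although clusters 3 and 5 lay at 151% (138 to 165) and 159% (145 to 175) of the level of cluster 0. These levels were 0.263% to 0.510% of the macrophage level. For *Ccl4* the range was 0.268% to 0.752%. The 12 macrophage markers together reached 0.219% (cluster 10, 2 UMIs, 10 of the 12 markers at 0) to 0.874% (cluster 9, 7 at 0) of their macrophage level in the same clusters, and 0.397% (0.377 to 0.418) in cluster 0, where *Ccl3* was at 0.320% (0.311 to 0.330), *Ccl4* at 0.357% (0.344 to 0.371) and no marker was at 0. Single macrophage markers were spread more widely than their sum, from 0.244% to 1.01% in cluster 0 and up to 16.5% in endothelial cluster 5. The LPS to control ratios of *Ccl3* outside the macrophages, such as 24.6 (21.6 to 28.0) in cluster 0, stood beside the ratio of 33.4 in macrophages. Macrophages held 81.7% of the *Ccl3* UMIs of the control library and 85.3% of those of the LPS library, and 80.8% and 83.8% of the *Ccl4* UMIs. Where the RNA of the remaining UMIs was made was not tested.

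**Figure D3:**
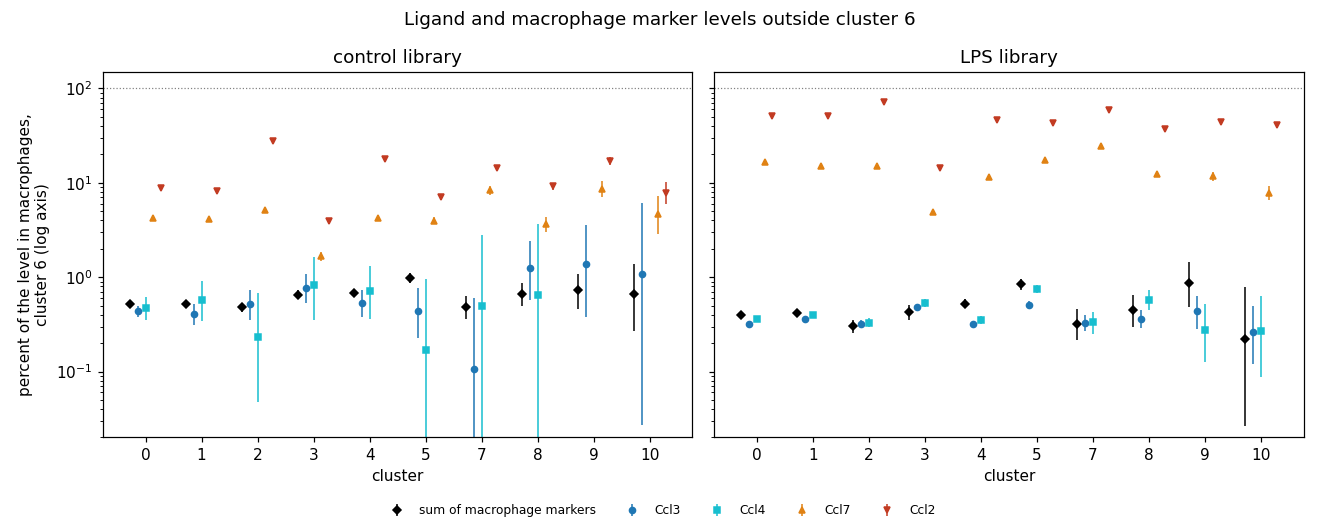
Level of *Ccl2*, *Ccl3*, *Ccl4* and *Ccl7* and the summed level of 12 macrophage markers in the 10 clusters other than macrophages, as a percent of the level in cluster 6 (log axis), control on the left and LPS on the right, with 95% intervals of the ratio of counts and values of 0 left out. With LPS, *Ccl3* and *Ccl4* lie between 0.263% and 0.752%, near the sum of the macrophage markers (0.219% to 0.874%). In the same library *Ccl7* lies between 4.93% and 24.7% and *Ccl2* between 14.3% and 71.2%.

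In single cells of cluster 0 *Ccl3* was thin. Of the 7030 LPS cells of cluster 0, 3444 held a *Ccl3* UMI, with 1.47 UMIs on average in a cell that had any, and 1 cell held 10 or more (18 UMIs). After thinning 19.3% (18.4 to 20.3) of these cells kept a UMI, against 0.788% in control. Cells of the cluster with a *Ccl3* UMI did not hold *Ccl4* more often than those without (11.3% and 11.7% after thinning). The *Ccl4* to *Ccl3* ratio of cluster 0 was 0.229 (0.169 to 0.306) in control and 0.608 (0.581 to 0.636) with LPS. It was thus higher with LPS in cluster 0, as in macrophages, and the LPS value lay slightly above that of macrophages (0.545). The part of macrophage RNA in these values was not tested.

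A few cells with many UMIs stood out in other clusters. In endothelial cluster 5 of the LPS library 1 cell held 192 *Ccl4* UMIs, and the 5 cells with the most held 228 of the 400 *Ccl4* UMIs and 198 of the 498 *Ccl3* UMIs. Without the 5 leading cells for each gene the levels of that cluster were 67.3 CPM of *Ccl3* and 38.5 CPM of *Ccl4*, in place of 109 and 87.9 CPM. In cluster 3 the highest cell held 47 *Ccl3* UMIs. In cluster 8 the *Ccl4* to *Ccl3* ratio was 0.866 (0.621 to 1.20) with no cell above 4 *Ccl3* or 3 *Ccl4* UMIs.

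*Ccl20*, the ligand of CCR6, was close to absent in saline and higher with LPS, beyond the counting interval, in every cluster except cluster 9. That cluster held 2 UMIs in control and 3 with LPS, a ratio of 2.41 (0.276 to 28.9). In cluster 10 all 7 LPS UMIs came from 1 cell. The control library held 147 *Ccl20* UMIs and the LPS library 7630, 0.963 and 59.8 CPM, a ratio of 62.1 (52.7 to 73.6). Endothelial cluster 5 led the LPS library with 232 CPM (1058 UMIs, after 2 UMIs and 0.471 CPM in control), a ratio of 494 with an interval of 136 to 4084. Both control UMIs came from 1 cell. Its level was 2.03 times (1.86 to 2.22) that of cluster 2, the next highest at 115 CPM.

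The remaining clusters followed in a long slope. Endothelial cluster 4 had 98.9 CPM, cluster 8 had 80.0 CPM and macrophages had 57.1 CPM with LPS. Fibroblast clusters 0, 1 and 7 had 45.7, 39.1 and 34.2 CPM and cluster 3 had 36.3 CPM. Clusters 4 and 8, clusters 0 and 10, 10 and 1, 1 and 3, and 3 and 7 were neighbours that did not differ beyond the counting interval. The control order was another one: cluster 3 (5.65 CPM) and endothelial cluster 4 (4.58 CPM) held 40 and 51 of the 147 control UMIs, and so had small ratios, 6.43 (4.56 to 9.27) and 21.6 (16.3 to 29.2), beside 122 (86.9 to 176) in fibroblast cluster 0. In control cluster 4, 3 cells held 72.5% of these UMIs, and without the 5 leading cells of each library its ratio was 113 (57.2 to 263). The same step left 1 control UMI in cluster 2 and turned its ratio of 119 (62.6 to 262) into 880 (157 to 34799), so the sizes of these ratios rest on a few control cells. In cluster 3 the log2 ratio was 2.67 over all cells and 4.92 over the cells with at most 10% mitochondrial UMIs, where the median cell of the cluster had 17.9% in control and 17.3% with LPS.

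*Ccl20* differed from *Ccl2* in how it was spread over cells. After thinning, 30.3% (26.0 to 34.8) of the LPS cells of endothelial cluster 5 kept a *Ccl20* UMI, against 0% of 350 control cells (upper bound 1.05%), at median depths of 8998 and 10171.5 UMIs, and 53.0% and 0.286% had one without thinning. The corresponding LPS share was 15.6% (13.7 to 17.6) in cluster 2, 14.8% (12.4 to 17.5) in cluster 4, 8.61% (7.97 to 9.29) in fibroblast cluster 0 and 6.21% (3.72 to 9.63) in macrophages. The macrophage share was the lowest of clusters 0 to 8, but its interval holds the share of cluster 0. Without thinning the shares of clusters 2, 4 and 0 and of macrophages were 22.2%, 30.7%, 20.1% and 13.7%. Macrophages (40 of 291 cells) were then not the lowest, as cluster 3 (109 of 929 cells) lay below them. In cluster 5 the 60 cells with 5 or more UMIs held 67.7% of the *Ccl20* UMIs. In cluster 0 the 1% of LPS cells with the most held 27.9% of them, where the same share of cells held 3% of the *Ccl2* UMIs. The cluster held 3372 *Ccl20* and 558146 *Ccl2* UMIs, and this share depends on the number of UMIs. For *Ccl3*, with 5065 UMIs there, it was 6.5%.

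**Figure D4:**
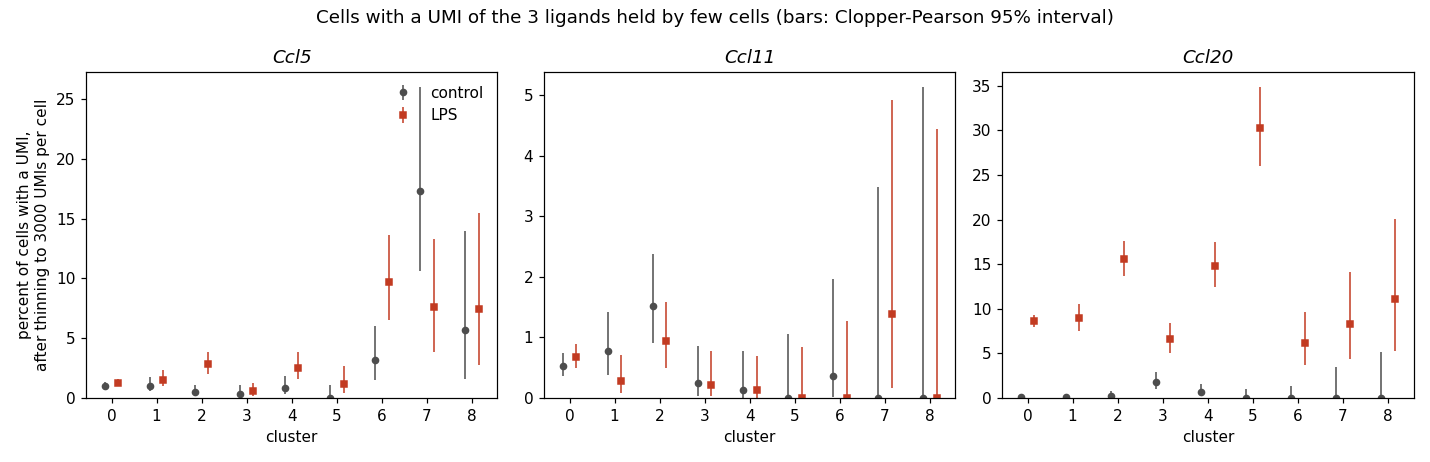
Percent of cells with a UMI of *Ccl5*, *Ccl11* and *Ccl20* in clusters 0 to 8 after each cell was thinned to 3000 UMIs, control as grey circles and LPS as red squares, with Clopper-Pearson 95% intervals. *Ccl20* reaches 30.3% in endothelial cluster 5 of the LPS library, *Ccl5* is highest in control cluster 7 (17.3%) with an interval that overlaps that of LPS, and *Ccl11* stays at or below 1.52%.

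The 250 bases before the start of *Ccl7* and *Ccl20* are shown because these are the members with a RefSeq promoter entry (2 of 7, build GRCr8), and because they differ in pattern: *Ccl7* was present in saline in all clusters and *Ccl20* hardly at all. *Ccl7* lies at chr10:67513845-67514094 and *Ccl20* at chr9:91836909-91837158, both on the plus strand. Letters in capitals match 1 of 4 motifs searched on both strands.
*Ccl7*: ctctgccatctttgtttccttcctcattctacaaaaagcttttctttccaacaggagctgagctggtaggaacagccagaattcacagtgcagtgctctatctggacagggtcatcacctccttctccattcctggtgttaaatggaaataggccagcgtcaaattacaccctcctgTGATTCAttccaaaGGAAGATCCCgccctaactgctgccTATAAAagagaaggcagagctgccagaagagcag
*Ccl20*: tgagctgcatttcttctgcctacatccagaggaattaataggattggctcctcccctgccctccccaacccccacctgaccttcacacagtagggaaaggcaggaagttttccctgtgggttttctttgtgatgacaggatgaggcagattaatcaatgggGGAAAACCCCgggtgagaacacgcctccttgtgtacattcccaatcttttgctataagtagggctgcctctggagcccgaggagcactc
In *Ccl7* the capitals are, in order, an AP-1 motif (TGANTCA) from 73 to 67 bases before the start, a match to the NF-κB consensus from 59 to 50 bases and a TATA motif (TATAAA) from 34 to 29 bases before it. In *Ccl20* they are 1 match to the NF-κB consensus from 89 to 80 bases before the start. The C/EBP motif TTGCNNAA was in neither. Of 33469 rat promoter windows of the same length, 6.33% hold the NF-κB consensus, 6.34% the AP-1 motif, 9.22% the C/EBP motif and 12.9% the TATA motif. A match describes the letters and is not a measurement of binding.

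*Ccl5*, also known as RANTES, was a gene of few cells, and the clusters moved in different directions. Its level in macrophages was 16.7 CPM (52 UMIs in 24 cells) in control and 198 CPM (491 UMIs in 39 cells) with LPS, a ratio of 11.8 (8.88 to 16.1). In endothelial cluster 4 the levels were 3.95 and 19.9 CPM, a ratio of 5.04 (3.62 to 7.16), and in cluster 2 they were 4.38 and 15.0 CPM, a ratio of 3.43 (2.39 to 5.0). Without the 5 leading cells of each library the ratio of cluster 2 was 7.70 (4.18 to 15.5), on 12 and 83 UMIs. Fibroblast clusters 0 and 1 had ratios of 1.48 (1.30 to 1.68) and 1.92 (1.51 to 2.45), and endothelial cluster 5 had 2.45 (1.04 to 6.40). In cluster 3 the levels were 3.11 and 2.92 CPM, a ratio whose interval holds 1 (0.461 to 1.87).

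The highest *Ccl5* level of the control library was in fibroblast cluster 7, the cluster whose 5 interferon response markers (*Mx1*, *Ifit2*, *Ifit3*, *Isg15* and *Irf7*) summed to 758 CPM in control and 2539 CPM with LPS. *Ccl5* there was 284 CPM (415 UMIs) in control and 88.8 CPM (135 UMIs) with LPS, a ratio of 0.312 (0.255 to 0.380). The summed interferon markers were higher with LPS in all 11 clusters. The *Ccl5* UMIs of cluster 7 sat in 26 of 104 control cells and 17 of 144 LPS cells. The 5 cells with the most held 248 and 98 of them. Without these cells the levels were 123 and 25.1 CPM, a ratio of 0.204 (0.139 to 0.293). The share of cells with a UMI after thinning was 17.3% (10.6 to 26.0) in control and 7.64% (3.87 to 13.3) with LPS, intervals that overlap, and the ratio of the thinned sums was -1.01 on the log2 scale in place of -1.67. The shares were 25% and 11.8% without thinning, at median depths of 12785.5 and 9681 UMIs. Cluster 3 had 0.359% and 0.540% after thinning.

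Cluster 8 showed how few cells can set such a value. Its *Ccl5* level was 58.5 CPM (65 UMIs) in control and 37.1 CPM (39 UMIs) with LPS, a ratio of 0.635 (0.416 to 0.959). Of the 65 control UMIs, 42 came from 1 cell. Without the 5 leading cells of each library 2 and 9 UMIs were left, a ratio of 4.76 (0.984 to 45.2) in the other direction. The 8 T and NK cell markers, genes of cells known to make *Ccl5*, were at 0 in clusters 7 and 8 of both libraries. They summed to 1 and 5 UMIs in macrophages and to 26 and 13 UMIs in endothelial cluster 4.

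Cells with *Ccl5* were compared with the rest of their cluster for the 5 interferon response markers, a choice made after the *Ccl5* values had been seen. After thinning, the 89 LPS cells of cluster 0 with a *Ccl5* UMI held 1.06 (0.854 to 1.29) UMIs of the list per cell and the 6935 without held 0.504 (0.487 to 0.521). In the control cells of that cluster the means were 0.206 (0.113 to 0.345) and 0.0971 (0.0897 to 0.105). In LPS macrophages these means were 2.39 (1.85 to 3.04) and 1.90 (1.74 to 2.08), and in cluster 7 they were 9 (7.31 to 11) and 8.28 (7.80 to 8.78). In control cluster 7 the cells with *Ccl5* had 1.39 (0.899 to 2.05) and those without 2.21 (1.91 to 2.55). The 2 pairs of cluster 0 had intervals that did not overlap, and the others did. These intervals treat UMIs as independent and do not cover the spread between cells, so a difference between cells was not tested.

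*Ccl11*, the eosinophil attractant, was the one ligand that was lower with LPS over the whole library, at 2.99 CPM (456 UMIs) in control and 1.96 CPM (250 UMIs) with LPS, a ratio of 0.656 (0.560 to 0.767). Cluster 2 had its highest level in control, 8.43 CPM, and 3.21 CPM with LPS, a ratio of 0.381 (0.237 to 0.597). Fibroblast cluster 0 held 62.1% of the control UMIs and 70% of those with LPS, at 3.13 and 2.37 CPM, a ratio of 0.759 (0.625 to 0.919). In cluster 1 the ratio was 0.587 (0.375 to 0.904) and in endothelial cluster 4, with 16 and 4 UMIs, 0.286 (0.0695 to 0.886). No other cluster held more than 5 UMIs in either library. After thinning the share of cells with a UMI was 0.530% in control and 0.669% with LPS in cluster 0 and 1.52% and 0.933% in cluster 2, differences within the intervals, and without thinning 2.26% and 1.55% in cluster 0 and 3.03% and 1.48% in cluster 2. A lower share of cells was thus not detectable at the thinned depth.

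The median LPS fibroblast of cluster 0 held 2 different ligands and the median LPS macrophage 4. After thinning, 33.8% of the control fibroblasts of cluster 0 held no UMI of any of the 7 genes, and none of the 7024 LPS fibroblasts did. The share with 3 or more different ligands was 0.591% and 35.0%. This count includes *Ccl3* and *Ccl4*, which 19.3% and 11.6% of the LPS cells of cluster 0 held after thinning at 0.320% and 0.357% of their macrophage levels, beside 0.397% for the macrophage markers, and the part of RNA from macrophages in it was not tested. In macrophages 59.8% of control and 99.7% of LPS cells held 3 or more, and 14.1% of the LPS macrophages held 5 or more, against 0.327% of the LPS fibroblasts. The 7 genes together made up 5.85 in every 10000 UMIs of cluster 0 in control and 95.3 with LPS. In macrophages these sums were 87.9 and 589, so control macrophages and LPS fibroblasts held like sums of CC ligand UMIs, and in cluster 3 they were 2.61 and 28.5. Among control fibroblasts of cluster 0 with a *Ccl2* UMI, 30.3% also held *Ccl7*, against 18.0% of those without.

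The genes whose levels followed each ligand most closely were sought among 11208 genes over 16 points, the control and LPS levels of the 8 clusters with at least 100 cells in each library. The points share 2 libraries and their difference in depth, so the values describe these libraries and carry no test. With Spearman's rho in place of Pearson's r, the most alike genes changed in part for every other ligand and in full for *Ccl2*. *Ccl2* was most like *Ccl7* (Pearson's r = 0.953 on log levels), *Tnfaip2* (0.936) and *Traf1* (0.935). *Ccl7* was most like the neutrophil attractant *Cxcl3* (0.968), *Tlr2* (0.964) and *Map3k8* (0.961). *Ccl3* and *Ccl4* were like each other (0.988) and both like the inflammatory cytokine *Il1b* (0.978 and 0.992) and *Cxcl2* (0.968 and 0.977).

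*Ccl20* was most like *Herc1* (0.969), *Tnip1* (0.965) and *Birc3* (0.943), of which *Tnip1* and *Birc3* belong to the NF-κB pathway. *Ccl5* was most like *Oasl* (0.892), an interferon-induced gene, *Ubxn2a* (0.840) and *Herc6* (0.811). *Ccl11* was most like *Il17d* (0.934), *Col12a1* (0.921) and *Pdgfrb* (0.921), the latter 2 being genes of stromal cells. It had at most 5 UMIs in clusters 3, 5, 6 and 7 of either library, so its r values rest in part on levels near 0. Among the 7 members, *Ccl5* and *Ccl11* stood apart from *Ccl2*, with r of 0.436 and -0.0847.

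Of 13 further CC ligand genes, 9 had at least 20 UMIs. In macrophages *Ccl12*, a neighbour of *Ccl11* in the gene order, had 903 CPM in control and 4129 CPM with LPS, a ratio of 4.57 (4.38 to 4.77). *Ccl9* there had 184 and 1154 CPM (ratio 6.26, 5.72 to 6.86), and *Ccl6* had 2680.3 and 3783 CPM (ratio 1.41, 1.37 to 1.45). *Ccl24*, an eosinophil attractant like *Ccl11*, went the other way in macrophages, with 334 and 67.2 CPM, a ratio of 0.201 (0.170 to 0.237).

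Other ligands had their highest levels outside the macrophages or were rare. *Ccl19*, a ligand of CCR7, had its highest level in cluster 2, with 16.1 CPM in control and 100.2 CPM with LPS, a ratio of 6.22 (5.22 to 7.44). *Ccl21*, also a CCR7 ligand, had 7.91 and 18.9 CPM in endothelial cluster 4, a ratio of 2.39 (1.84 to 3.12). *Ccl22* had 8 UMIs in the whole control library and 189 in the LPS library, a ratio of 28.3 (14.1 to 66.4). *Ccl1* had 0 and 41, which is at least 16.4-fold higher against a floor of 3 UMIs over the library. *Ccl27* was lower over the library, at a ratio of 0.658 (0.579 to 0.747), and in cluster 3, its highest, the levels were 41.4 and 38.7 CPM (ratio 0.934, 0.779 to 1.12). Of the 9 genes, 7 were thus higher and 2 lower with LPS over the whole library. How many of all genes lay on each side was not counted, so these counts are not read as a trait of the ligands.

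Most of the CC receptor genes counted here were scarce. Of the 10 CC receptor genes in the gene table, 4 had at least 20 UMIs, and *Ccr6*, the receptor of *Ccl20*, and *Ccr3*, that of *Ccl11*, had 0 UMIs in both libraries. *Ccr2*, the gene of the receptor through which *Ccl2* and *Ccl7* attract monocytes, was not analysed here. In macrophages *Ccr1* had 74.8 CPM in control and 47.1 CPM with LPS (ratio 0.629, 0.499 to 0.789). *Ccrl2*, a receptor-like protein that does not signal, had 3.53 and 160.1 CPM there, a ratio of 45.3 (25.1 to 91.6). *Ccr10* was lower over the library with 119 and 25 UMIs (ratio 0.251, 0.156 to 0.389). Of the atypical receptors, which bind chemokines without classical signalling, *Ackr3* had a ratio of 0.810 (0.755 to 0.868) and *Ackr4*, with 56 and 7 UMIs, 0.15 (0.0575 to 0.329).

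The genes of LPS sensing were led by different clusters. *Tlr4*, the LPS receptor, was at 1.54 CPM in control and 1.53 CPM in LPS fibroblasts of cluster 0, and at 9.63 and 1.61 CPM in macrophages (30 and 4 UMIs), a ratio of 0.167 (0.0428 to 0.474). Its co-receptor *Cd14* was at 533 and 1536 CPM in macrophages, a ratio of 2.88 (2.72 to 3.05), and at 12.2 and 9.56 CPM in cluster 0. *Lbp*, which hands LPS to CD14, was highest in endothelial cluster 5, the cluster with the most *Ccl20*, at 202 and 224 CPM (ratio 1.11, 1.01 to 1.21).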

How the data were processed

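The authors deposited raw UMI counts per gene and cell barcode for 2 libraries, with a table of clusters (Seurat, both libraries aligned, resolution 0.5) and cell types. The submitters' processing notes name Cell Ranger 2.2.0 and Seurat 2.3.4. The genome build, the annotation and how reads shared between related genes (*Ccl2*, *Ccl7* and *Ccl12*, *Ccl3* and *Ccl4*) were assigned are not given in the sources used here, so splits within such families are uncertain. Control cells held 3682 to 70604 UMIs and LPS cells 2821 to 46594. No further cell filter and no doublet caller was applied, but dropping each library's top 8% of cells by UMIs was tried as an alternative. The 2 control and 8 LPS cells without a cluster were left out.

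Counts were summed per cluster and library and divided by the sum of all UMIs of that cluster (Python 3.11.15, numpy 2.4.6, scipy 1.17.1, pandas 2.3.3). Intervals are exact Poisson intervals for levels, exact conditional intervals for ratios and Clopper-Pearson intervals for shares, at 95%. They treat UMIs as independent and do not cover variation between cells or samples. Shares were taken after thinning each cell to 3000 UMIs (79 LPS cells were shallower). The fold threshold was 4, on genes with at least 50 UMIs in both libraries together and with 0.5 UMI added to each sum. With 1 library per condition no test was run. Likeness was Pearson's r of log2(CPM + 1) over genes with at least 200 UMIs. The named genes were the members, the 3 most alike genes of each, and every gene with at least 20 UMIs of the lists of other CC ligands, receptors and LPS sensing, of which 1 receptor is not reported here. Members and lists were chosen with earlier results of these data known. The ratio and call steps were tested on simulated sums drawn as Poisson counts. This checks the code and cannot show how the intervals hold where UMIs are grouped in few cells. Gene order and promoter sequences are from RefSeq (GRCr8).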

Additional observations from a re-analysis of the deposited data

Results flagged for a closer look

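The ratio of LPS to control for *Ccl5* was below 1 in fibroblast cluster 7 (0.312) and in cluster 8 (0.635), whereas it was above 1, with an interval that excludes 1, in 6 other clusters. The difference between clusters was not tested, since each cluster has 1 library per condition. The value of cluster 7 kept its direction without the 5 cells with the most *Ccl5* UMIs, and that of cluster 8 did not.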

How the results depend on the processing

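No paired analysis was possible because saline and LPS each gave a single library. Of 472 log2 ratios recomputed under 8 alternatives for 59 pairs of ligand and cluster, 398 stayed within the counting interval of the reported value, 73 left it and 1 changed direction, the ratio of *Ccl5* in cluster 8 without its 5 leading cells (2.01 in place of -0.65), an alternative chosen after seeing the data. That setting also gave the largest shift of all, 3.18, for *Ccl7* in cluster 10 (5.75 in place of 2.58). The 5 leading cells there held all 20 control UMIs, so 0 were left. In the same setting the log2 ratios were 4.11 for *Ccl2* and 3.89 for *Ccl7* in cluster 0 and 5.22 for *Ccl3* and 6.76 for *Ccl4* in macrophages. With the median of all genes set to 0 these were 4.21, 3.98, 5.37 and 6.71. Without the 8% of cells with the most UMIs *Ccl2* was at 4.10. With cells thinned to 3000 UMIs *Ccl3* was at 5.22 and *Ccl5* in cluster 0 at 0.31, and with the mean of the cells' own CPM *Ccl3* was at 5.15. Other kinds of result moved more often. Shares of cells, taken at another thinning depth or without thinning, left their interval in 144 of 224 values. Shares of a library's UMIs did so in 6 of 14 values. Numbers of genes past the fold moved beyond a set margin in 36 of 66 values. A fold of 2 gave 420 genes higher in cluster 0 in place of 141, and 307 in macrophages in place of 115. The narrow intervals of the abundant ligands make small shifts leave them: leaving out mitochondrial genes moved no log2 ratio by more than 0.02. The largest shift among the planned settings was 2.25, for *Ccl20* in cluster 3 with cells of low mitochondrial content. Spearman's rho in place of Pearson's r changed at least 1 of the 3 most alike genes of every ligand and all 3 of those of *Ccl2*. *Ccl3*, *Ccl4*, *Ccl7*, *Ccl11* and *Ccl20* kept 1 of the 3 each. Control depth limits the ratios of ligands with few control UMIs: that of *Ccl20* in cluster 5 ran from 8.29 to 10.7 on the log2 scale over the 8 alternatives, beside 8.63. The cause of the other shifts was not tested.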
